A study of Mus musculus with 12 samples.

Results

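The 10 genes described here code for proteins that coat, store and translate messenger RNA, and several of them are forms used by the testis. They were taken by name from a fixed list, and all 10 were found among the 49216 genes of the deposited table that hold counts. They belong to 3 families. The Y-box proteins are Ybx1, Ybx2 and Ybx3, the cytoplasmic poly(A)-binding proteins are Pabpc1, Pabpc2, Pabpc4, Pabpc6 and Pabpc1l, and the eIF4G scaffolds are Eif4g1 and Eif4g3.

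RNA was sequenced in 12 libraries of meiotic germ cells from C57Bl mice that carry tdTomato in their germ cells, sorted by flow cytometry and then kept in culture, in 3 independent experiments. The first group is pachytene and diplotene cells (PD) cultured for 48 hours in 24 mM oxamate, which inhibits lactate dehydrogenase and, per the series text, lowers their 2-hydroxyglutarate (2HG) to the amount found in the earlier cells. The second is PD cells cultured for 48 hours untreated. The third is leptotene and zygotene cells (LZ) cultured for 6 days with 0.3 mM octyl-L2HG, a cell-permeable form of L-2HG, and the fourth is LZ cells cultured for 6 days untreated. All 4 groups share the strain, the fluorescent marker, the sort and the poly(A) capture, and each has 3 libraries. The promoter that drives tdTomato is not given in the sources used here. PD and LZ cells were cultured for different times, so stage and time in culture cannot be told apart. A letter A, B or C marks the library code that the 4 groups have in common.

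Germ cells in meiotic prophase make many messages that they translate only days later, in the haploid cells that follow. Y-box proteins bind such messages with little sequence preference and package them into stored ribonucleoprotein particles, and in mice Ybx2 (also called MSY2) and Ybx3 (MSY4) are the abundant germ cell forms. Poly(A)-binding proteins coat the poly(A) tail and touch eIF4G, the scaffold that links the cap-binding protein, the helicase eIF4A and the ribosome. Pabpc2 and Pabpc6 each have a single coding exon, as genes copied from processed mRNA do, and eIF4G3 is needed for spermatocytes to complete meiosis in mice.

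Untreated PD cells differed from untreated LZ cells in 9 of the 10 genes by limma with Benjamini-Hochberg adjustment over all genes, at a threshold of 0.05. Of the 10, 7 were higher, where 50.8% of all 16858 genes tested were higher, and 2 were lower, where 39.0% were. The exception was Pabpc1l. Differences between these stages were thus the rule for all genes, and the size and pattern within each family carry more than the number of calls. Neither treatment changed a gene of the set past the threshold.

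Depth was 19107780 to 21115131 counts with oxamate and 15202579 to 21275486 in untreated PD libraries, against 11271410 to 18432143 with octyl-L2HG and 10532504 to 15903788 in untreated LZ libraries. The labels held against marker genes, since all 8 pachytene and diplotene markers rose and all 8 leptotene and zygotene markers fell in untreated PD against untreated LZ cells. The 8 pachytene and diplotene markers summed to 1.08% to 1.12% of counts in untreated PD libraries and 0.0697% to 0.119% in untreated LZ libraries, with the highest LZ value in library A, and Hspa2 alone made up 94.2% to 96.2% of the untreated LZ sums. Round spermatid markers were present in PD libraries, at 0.0550% to 0.0701% of counts untreated, against 0.000791% to 0.00143% in untreated LZ libraries. Markers of other testis cells were scarce but unequal. The 7 peritubular and stromal markers summed to 0.000568% to 0.000710% in untreated PD libraries and 0.0215% to 0.0253% in untreated LZ libraries, with at most 1 marker at 0 in a library of either group. Fn1 alone held 94.5% to 95.2% of the untreated LZ sums, and without it the list stood at 0.000227% to 0.000276% in untreated PD and 0.00103% to 0.00139% in untreated LZ libraries. All 5 of these markers that could be tested were lower in PD, while Acta2 and Dcn, too low to test, had 0 to 9.22 normalized counts in untreated PD and 0 to 3.40 in untreated LZ libraries. The 8 Sertoli cell markers summed to 0.000164% to 0.000230% with 3 to 6 at 0 in untreated PD libraries, and 0.00177% to 0.00235% with 0 to 1 at 0 in untreated LZ libraries. The Sertoli genes Gata4, Wt1 and Rhox5 were at 0 in all 3 untreated PD libraries. The 6 Leydig cell markers summed to 0.000297% to 0.000385% in untreated PD and 0.00141% to 0.00196% in untreated LZ libraries, led by Star, and Insl3 was at 0 in all 3 libraries of either stage. The 6 macrophage markers summed to 0.000409% to 0.000467% in untreated PD and 0.000905% to 0.00157% in untreated LZ libraries, where Cd68 was lower and C1qb higher in PD. The 5 endothelial markers summed to 0.00207% to 0.00212% in untreated PD and 0.000807% to 0.00104% in untreated LZ libraries. Of the 4 that could be tested Vwf, Tek and Cdh5 were higher in PD, with Cdh5 at 0 in all 3 untreated LZ libraries, and Pecam1 did not pass (-0.39, adjusted p = 0.159). The part of these cells in the stage differences below was not tested. In such bulk samples fewer cells of a type and less RNA per cell cannot be told apart. Values below are read counts normalized between libraries. Fold changes were fitted to log2(normalized count + 1), and SE stands for their standard error on that scale. The median gene tested stood 0.49 above 0 on this scale between the untreated stages, and at -0.08 when libraries were scaled by total counts, so changes are also given relative to the median.

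The Y-box genes rose together and by very different amounts. By ratio of means Ybx3 rose 89.7-fold and Ybx2 12.4-fold in untreated PD over untreated LZ cells, and Ybx1, the form found in most tissues, rose 3.19-fold.

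Ybx1 (chromosome 4, 119277981 to 119294604, minus strand, GRCm38) had 34491, 36999 and 36723 normalized counts in libraries A, B and C of untreated PD cells. In untreated LZ cells it had 12392, 11518 and 10054. The stages did not overlap, and the log2 fold change was 1.68 (SE 0.09, adjusted p = 1.20e-10), which is 1.19 above the median of all genes. With oxamate Ybx1 averaged 37190 ± 2411 and with octyl-L2HG 10828 ± 773, against 36071 ± 1375 in untreated PD and 11321 ± 1181 in untreated LZ cells (SD, n = 3 each). The order of the 4 groups was oxamate, untreated PD, untreated LZ, octyl-L2HG, and only the step between the stages exceeded the spread. Of the 50-base stretches of its longest transcript, 25.1% also occur in transcripts of other genes, most of them in Gm11560, so part of its count depends on how reads with several matches were treated.

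Ybx2 (chromosome 11, 69935796 to 69941605, plus strand) had 51542, 57009 and 55018 normalized counts in untreated PD cells. In untreated LZ cells it had 5036, 4132 and 3988. Every PD library lay far above every LZ library. On the log2 scale Ybx2 rose by 3.64 (SE 0.09, adjusted p = 8.41e-14), 3.16 above the median of all genes.

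Ybx3 (chromosome 6, 131364855 to 131388476, minus strand) reached 52830, 54380 and 55682 normalized counts in untreated PD cells. It had 679, 636 and 500.4 in untreated LZ cells. Per kb of transcript it was the lowest of the Y-box genes in every LZ library and lay between Ybx1 and Ybx2 in every PD library, while per kb of coding sequence it was above Ybx2 in 5 of 6 PD libraries. It rose by 6.50 on the log2 scale (SE 0.11, adjusted p = 5.80e-15), 6.01 above the median. Neither Ybx2 nor Ybx3 shares a 50-base stretch with another gene's transcript.

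The family therefore changed its make-up. Per kb of the longest coding transcript, Ybx1 made up 26.4% ± 0.04 of the Y-box count in untreated PD cells and 70.3% ± 1.17 in untreated LZ cells (SD, n = 3 each). Ybx2 made up 38.8% ± 0.69 in untreated PD and 26.5% ± 1.30 in untreated LZ cells, and Ybx3 34.9% ± 0.71 in untreated PD and 3.29% ± 0.21 in untreated LZ cells. Together the 3 genes took 0.816% ± 0.02 of all counts in untreated PD and 0.128% ± 0.009 in untreated LZ cells. Ratios within a library do not depend on scaling between libraries. The Ybx3/Ybx1 count ratio averaged 1.51 ± 0.03 in untreated PD and 0.0533 ± 0.003 in untreated LZ cells. Ybx2/Ybx1 averaged 1.51 ± 0.03 in untreated PD and 0.387 ± 0.025 in untreated LZ cells. Neither ratio overlapped between the stages, and each had an exact two-sided permutation p of 0.1, the smallest that 3 against 3 libraries can give (adjusted p = 0.191 over 21 ratio tests).

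The 250 bases before the RefSeq start of each Y-box gene are shown because these 3 related genes diverge so far in the size of their rise. They are from RefSeq (GRCm38.p6), 5′ to 3′ on the gene's strand, and capitals mark CCAAT or its reverse complement ATTGG, the letters for which Y-box proteins were named. Ybx1 is chr4:119294514-119294763 on the minus strand, Ybx2 is chr11:69935649-69935898 on the plus strand and Ybx3 is chr6:131388451-131388700 on the minus strand.
Ybx1: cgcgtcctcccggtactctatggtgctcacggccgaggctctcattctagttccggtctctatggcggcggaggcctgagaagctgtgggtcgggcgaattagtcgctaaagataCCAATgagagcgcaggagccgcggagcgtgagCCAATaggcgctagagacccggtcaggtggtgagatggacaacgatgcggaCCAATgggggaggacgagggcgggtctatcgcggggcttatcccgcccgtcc
Ybx2: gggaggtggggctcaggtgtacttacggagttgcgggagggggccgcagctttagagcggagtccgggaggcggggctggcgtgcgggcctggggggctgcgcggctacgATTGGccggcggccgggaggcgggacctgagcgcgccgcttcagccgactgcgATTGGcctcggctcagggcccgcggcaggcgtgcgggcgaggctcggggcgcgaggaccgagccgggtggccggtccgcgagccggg
Ybx3: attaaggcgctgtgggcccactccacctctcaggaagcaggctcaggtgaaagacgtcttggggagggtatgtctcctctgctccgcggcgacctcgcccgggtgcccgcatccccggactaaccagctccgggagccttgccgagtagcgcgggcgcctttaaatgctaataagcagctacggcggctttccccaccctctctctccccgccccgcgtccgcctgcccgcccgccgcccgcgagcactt
The Ybx1 window holds these letters 3 times and the Ybx2 window 2 times, while the Ybx3 window holds none. All 3 windows reach into the gene span, past the annotated gene starts at 119294604 for Ybx1, 69935796 for Ybx2 and 131388476 for Ybx3. The last of the 3 Ybx1 sites and the last of the 2 Ybx2 sites, as printed, lie inside the annotated gene. Ybx2 has 2 RefSeq starts, and a single window is shown. Of 32851 such windows in the table, 33.8% hold CCAAT on either strand. The cAMP response letters TGACGTCA, searched the same way and present in 1.55% of windows, were in none of the 7 windows that could be matched to the set.

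**Figure D1:**
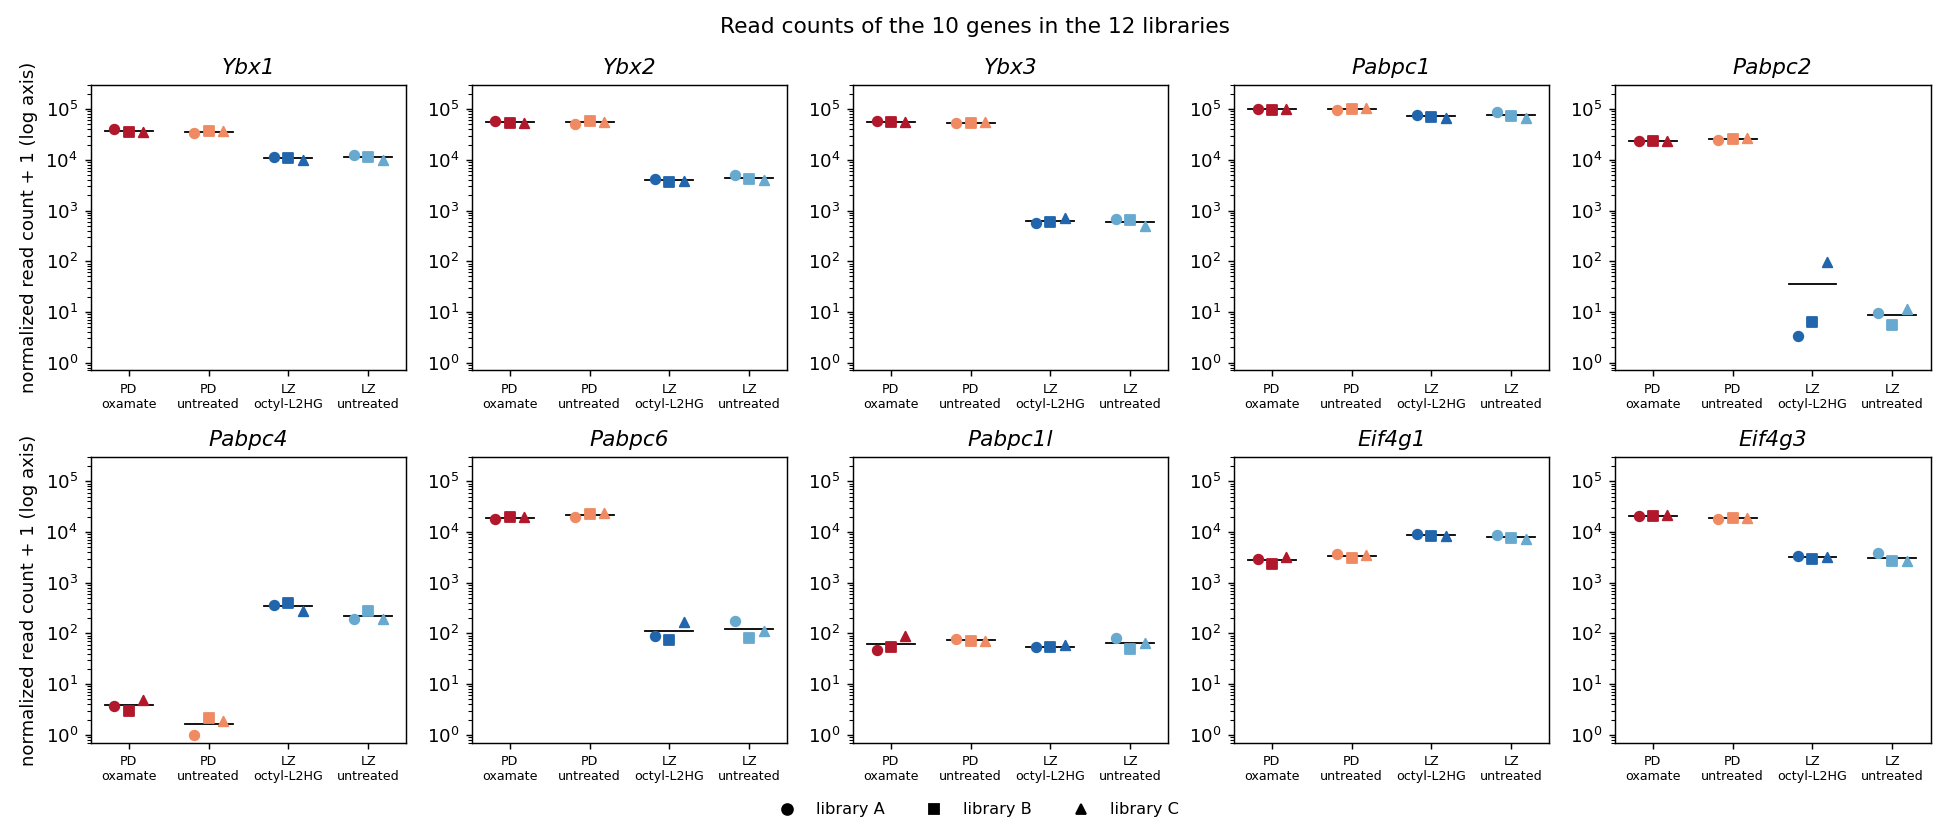
Normalized read counts (plus 1, log axis) of the 10 genes, with groups on the horizontal axis, 1 point per library (circle A, square B, triangle C) and a line at the group mean. The 3 Y-box genes, Pabpc2, Pabpc6 and Eif4g3 sit higher in both PD groups, Pabpc4 and Eif4g1 sit higher in both LZ groups, and 1 octyl-L2HG library stands apart for Pabpc2.

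Among poly(A)-binding proteins the general form changed little while 2 single-exon genes appeared. Pabpc2 was about 3248-fold and Pabpc6 182-fold higher in untreated PD than in untreated LZ cells by ratio of means. Pabpc4, the form first described in activated human T cells, was all but absent from PD cells.

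Pabpc1 (chromosome 15, 36595661 to 36609668, minus strand), the form of most tissues, had the highest count per kb of its longest transcript of the set in every library. That rank depends on the length used. Per kb of exon Ybx2 and Ybx3 were above it in every PD library. Per kb of coding sequence Ybx3 was above it in 2 oxamate libraries and Ybx2 in oxamate library A. Pabpc1 had 94201, 102084 and 106483 normalized counts in untreated PD cells. In untreated LZ cells it had 89579, 72331 and 67127. The fitted log2 fold change was 0.41 (SE 0.09, adjusted p = 0.000867), which is 0.07 below the median of all genes and was -0.07 with adjusted p = 0.339 when libraries were scaled by total counts. Without untreated PD library C it was 0.19 with adjusted p = 0.0522, and the median of all genes was then 0.17, so Pabpc1 lay 0.02 above it. Whether Pabpc1 counts as higher thus depends on the scaling between libraries. Pabpc1 shares 20.7% of its 50-base stretches with other genes, mainly Gm16580.

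Pabpc2 (chromosome 18, 39773497 to 39776082, plus strand) had 24117, 25619.8 and 26460.4 normalized counts in untreated PD cells. In untreated LZ cells only 10, 4 and 9 reads were counted. On the log2 scale it rose by 11.55 (SE 1.03, adjusted p = 2.21e-06). The ratio of the summed counts, scaled for depth, was 3223, with a 95% interval of 2148 to 5085 that covers counting error only. The large SE comes with the shared estimate of spread, to which 1 octyl-L2HG library contributes: without it the adjusted p was 1.20e-13.

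Pabpc6 (chromosome 17, 9666495 to 9669717, minus strand) had 19925, 22674 and 23531 normalized counts in untreated PD cells. It had 174, 81.3 and 109 in untreated LZ cells. Pabpc6 rose by 7.56 on the log2 scale (SE 0.30, adjusted p = 4.23e-10), 7.07 above the median. Within untreated LZ cells library A was highest for Pabpc6, as it was for the summed pachytene and diplotene markers with or without Hspa2. Neither Pabpc2 nor Pabpc6 shares a 50-base stretch with any other gene's transcript.

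Pabpc4 (chromosome 4, 123262351 to 123298925, plus strand) went the other way. It had 0, 1 and 1 reads in untreated PD cells. In untreated LZ cells it had 218, 240 and 171 reads, or 220 ± 50.8 normalized counts. By summed counts scaled for depth it was 319-fold lower in untreated PD than in untreated LZ cells, with a 95% interval of 87.9-fold to 2637-fold from counting error. The fitted log2 fold change was -7.11 (SE 0.32, adjusted p = 3.20e-11) and depends on the pseudocount. Its identity is less certain than that of the other members, because 70.3% of its 50-base stretches occur in other genes' transcripts and 67.5% in Gm10110. Gm10110 itself had 0 reads in every PD library and 1 to 11 in LZ libraries.

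Pabpc1l (chromosome 2, 164025450 to 164050538, plus strand), known as the poly(A)-binding protein of oocytes and early embryos, was low in all 12 libraries. It averaged 72.2 ± 3.33 normalized counts in untreated PD and 64.0 ± 16.6 in untreated LZ cells, and the stages overlapped. The log2 fold change was 0.20 (95% interval -0.33 to 0.74, adjusted p = 0.448).

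Per kb of the longest coding transcript, Pabpc1 made up 68.2% ± 0.10 of the family's count in untreated PD and 99.5% ± 0.03 in untreated LZ cells. Pabpc2 made up 18.7% ± 0.29 in untreated PD and 0.0113% ± 0.005 in untreated LZ cells. Pabpc6 made up 13.01% ± 0.34 in untreated PD and 0.136% ± 0.04 in untreated LZ cells. The whole family took 0.835% ± 0.04 of all counts in untreated PD and 0.60% ± 0.06 in untreated LZ cells.

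**Figure D2:**
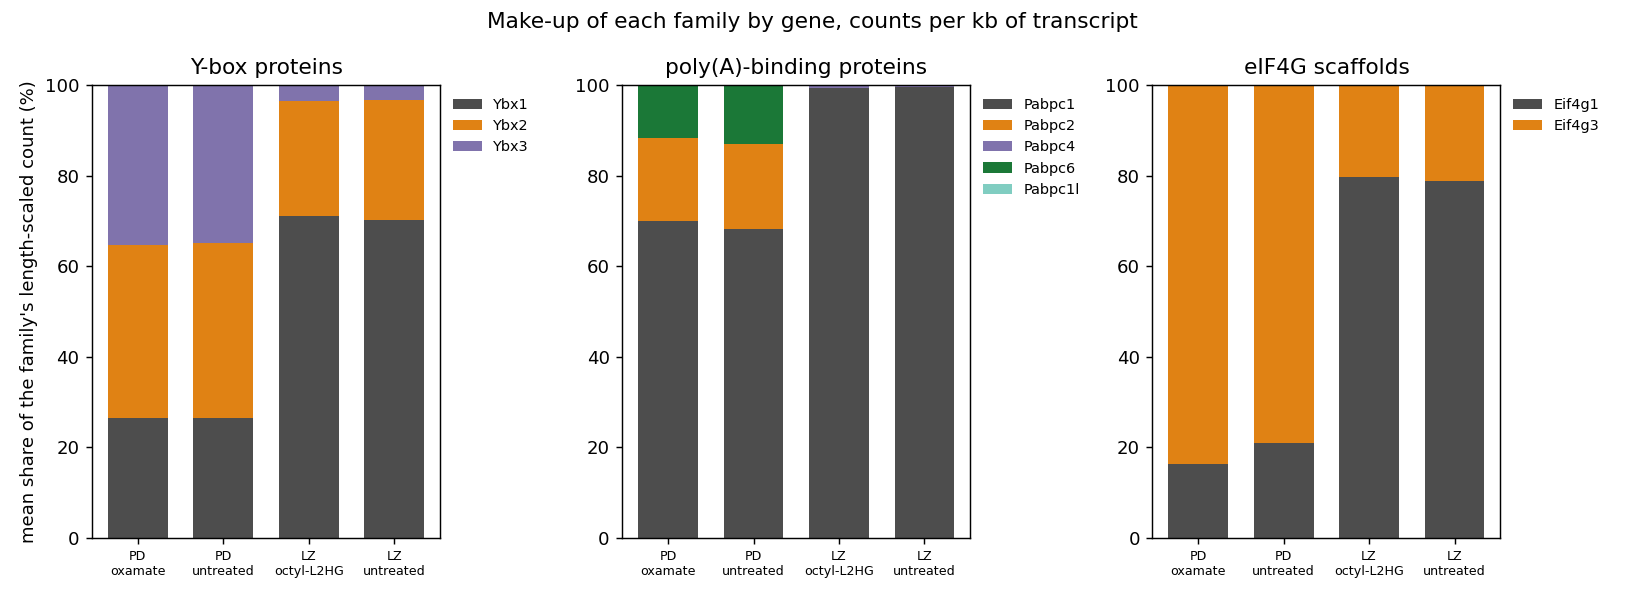
Mean share of each gene in the length-scaled count of its family (vertical axis, percent, n = 3 libraries per bar), with groups on the horizontal axis. Ybx3 holds 34.9% of the Y-box count in untreated PD and 3.29% in untreated LZ cells, Pabpc2 and Pabpc6 appear only as visible bands in the PD groups, and Eif4g3 holds 79.0% in untreated PD and 21.1% in untreated LZ cells.

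The 2 eIF4G scaffolds traded places. By ratio of means Eif4g3 was 6.08-fold higher and Eif4g1 2.30-fold lower in untreated PD than in untreated LZ cells. Eif4g1 (chromosome 16, 20668313 to 20692884, plus strand), the main scaffold of most cells, had 3651, 3102 and 3537 normalized counts in untreated PD cells. It had 8692, 7705 and 7228 in untreated LZ cells, above every PD library. Its log2 fold change was -1.20 (SE 0.11, adjusted p = 6.02e-08), 1.68 below the median of all genes.

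Eif4g3 (chromosome 4, 137993022 to 138208508, plus strand) had 17983, 19286 and 18674 normalized counts in untreated PD cells. Its values in untreated LZ cells were 3855, 2625 and 2722, with library A highest. The log2 fold change was 2.63 (SE 0.12, adjusted p = 2.37e-11). Per kb of the longest coding transcript Eif4g3 made up 79.0% ± 1.95 of the pair in untreated PD and 21.1% ± 2.23 in untreated LZ cells. The Eif4g3/Eif4g1 count ratio averaged 5.47 ± 0.67 in untreated PD and 0.387 ± 0.052 in untreated LZ cells, a 14.2-fold difference on the log scale with no overlap (exact two-sided permutation p = 0.1, adjusted p = 0.191). The sum of the pair was 0.124% ± 0.0007 of all counts in untreated PD and 0.0856% ± 0.006 in untreated LZ cells.

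The 250 bases before the RefSeq start of each scaffold gene are shown because the pair moved in opposite directions. Eif4g1 is chr16:20672477-20672726 and Eif4g3 is chr4:137993205-137993454, both on the plus strand of GRCm38.p6, and neither holds CCAAT or ATTGG. Both windows lie inside the gene span, downstream of the annotated gene starts at 20668313 for Eif4g1 and 137993022 for Eif4g3. They are therefore not the bases before the annotated gene start. Eif4g3 has 2 RefSeq starts, and the window belongs to the one nearest the annotated gene start.
Eif4g1: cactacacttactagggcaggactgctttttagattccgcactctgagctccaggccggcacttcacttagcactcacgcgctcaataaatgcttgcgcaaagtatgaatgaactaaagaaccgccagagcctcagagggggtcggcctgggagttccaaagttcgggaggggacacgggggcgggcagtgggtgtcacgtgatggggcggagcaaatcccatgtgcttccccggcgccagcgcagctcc
Eif4g3: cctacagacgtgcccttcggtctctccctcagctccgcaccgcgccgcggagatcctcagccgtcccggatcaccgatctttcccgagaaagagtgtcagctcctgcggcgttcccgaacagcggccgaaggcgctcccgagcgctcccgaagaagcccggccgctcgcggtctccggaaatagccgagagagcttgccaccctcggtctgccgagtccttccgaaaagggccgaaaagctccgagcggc
Each window holds AACNG, the core letters bound by MYB factors, 1 time on either strand, as 74.2% of all windows do at least that often.

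**Figure D3:**
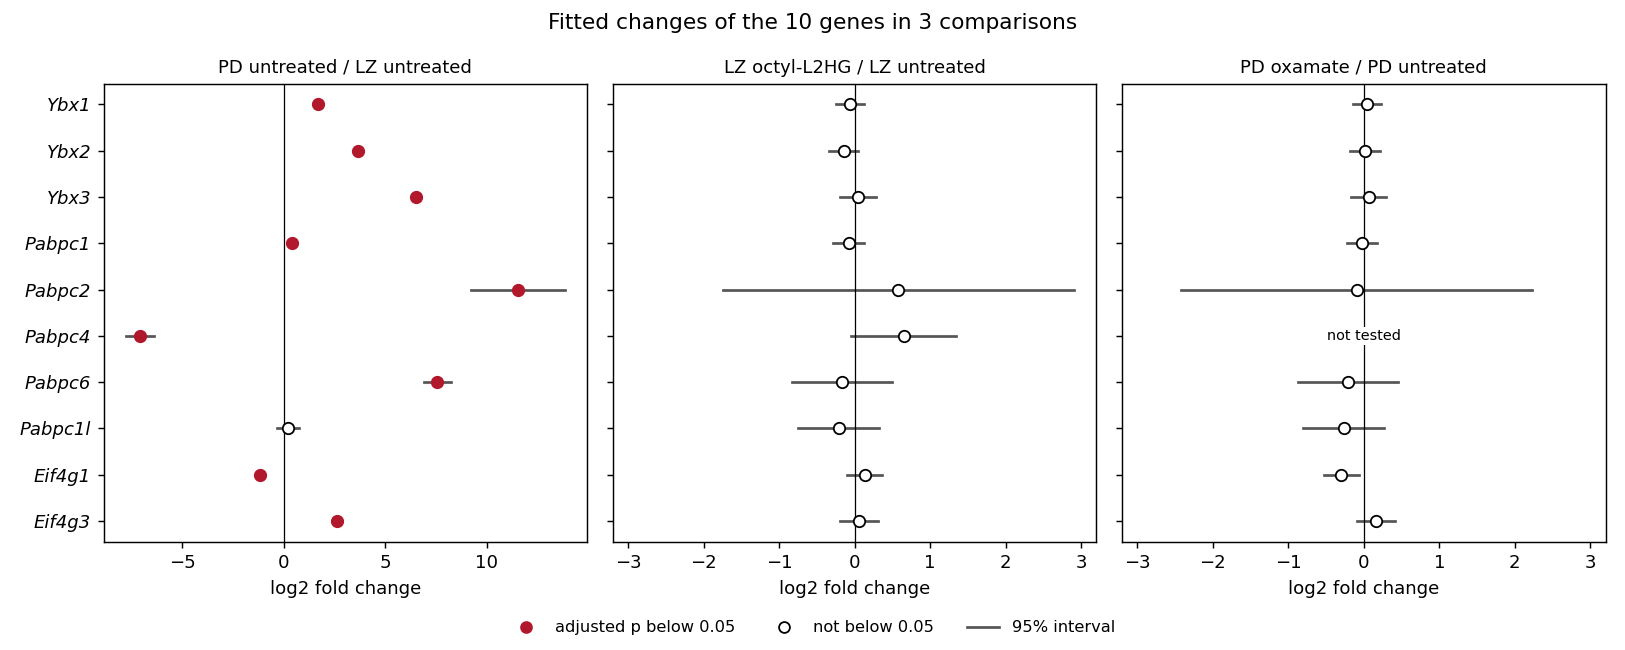
Fitted log2 fold changes (horizontal axis) with 95% intervals for the 10 genes in 3 comparisons, filled where the adjusted p is below 0.05. In the stage comparison 9 genes are filled and range from -7.11 for Pabpc4 to 11.55 for Pabpc2, and in both treatment comparisons, drawn on a narrower axis, none is filled.

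The comparison with octyl-L2HG asks whether adding the metabolite at the early stage moves these genes. None of the 10 genes passed the test in LZ cells with octyl-L2HG against untreated LZ cells by limma, none had an unadjusted p under 0.05, and none was called with voom weights or in the authors' deposited table. Over all 13005 genes tested, 0.277% were called higher and 0.0231% lower, and 13.0% had an unadjusted p under 0.05. For the 3 Y-box genes the 95% intervals ran from -0.25 to 0.12 for Ybx1, -0.34 to 0.05 for Ybx2 and -0.19 to 0.28 for Ybx3. These bound any change within the spread seen, and a missed threshold does not show that there was none.

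Pabpc4 came nearest to a difference. It had 358, 393 and 280.1 normalized counts with octyl-L2HG. In untreated LZ cells it had 188, 279 and 194. The groups did not overlap, but by little, and the log2 fold change of 0.65 (SE 0.32) had an unadjusted p of 0.0651 and an adjusted p of 0.424 from limma. Over the 20 alternative settings the adjusted p ranged over 0.116 to 0.700. All 3 codes were higher with octyl-L2HG.

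Pabpc2 shows 1 library that stands apart. Octyl-L2HG libraries A, B and C had 3, 5 and 81 reads, against 10, 4 and 9 in untreated LZ libraries. With all libraries the log2 fold change was 0.58 (95% interval -1.75 to 2.90, adjusted p = 0.873). Without octyl-L2HG library C the gene was too low to be tested, and the log2 Pabpc2/Pabpc1 ratio differed by -0.93 between the groups, in place of 0.61. The same library was highest of the 3 for Pabpc6, with 165 normalized counts against 89.9 and 73.2, and for Ybx3, with 701 against 563 and 601. It was also the highest of the 3 for 6 of the 8 pachytene and diplotene markers. Adam3 had 93.8 normalized counts in library C against 4.57 and 4.18 in A and B, Spag6l 39.7 against 4.57 and 2.09, Ccna1 12.02 against 0.762 and 0, and Ldhc 406 against 190 and 132. Hspa2, which makes up most of that list in LZ cells, was not highest there, and without it the list stood at 0.00721% of counts in library C, 0.00392% in A and 0.00339% in B. These markers move with Pabpc2, and the part of such cells in these values was not tested.

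The Eif4g3/Eif4g1 ratio was 0.366 ± 0.012 with octyl-L2HG and 0.387 ± 0.052 in untreated LZ cells, which overlap (exact two-sided permutation p = 0.7). Eif4g1 averaged 8621 ± 307 with octyl-L2HG and 7875 ± 747 untreated, with a log2 fold change of 0.13 (95% interval -0.10 to 0.36, adjusted p = 0.651). Eif4g3 averaged 3158 ± 183 with octyl-L2HG and 3067 ± 684 untreated (adjusted p = 0.879).

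The comparison with oxamate asks whether lowering 2HG in PD cells to what LZ cells hold moves these genes back. None of the 9 genes tested passed in PD cells with oxamate against untreated PD cells by limma, while 6.15% of 15210 genes were called higher and 1.67% lower. When libraries were scaled by total counts, 66.3% of called genes were higher in place of 78.7%. With voom weights none of the 9 was called. In the fit without these weights 1 of the 9, Eif4g1, had an unadjusted p under 0.05. Among all 15210 genes, 2246 were higher and 966 lower by that measure.

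The smallest p-value was in the eIF4G pair. Eif4g1 had 2886, 2368 and 3144 normalized counts with oxamate. Untreated PD cells had 3651, 3102 and 3537. Each code was lower with oxamate, although the groups overlap. The log2 fold change was -0.30 (SE 0.11, 95% interval -0.53 to -0.07), with an unadjusted p of 0.0145 and an adjusted p of 0.116. The adjusted p ranged over 0.0325 to 0.366 in 20 alternative settings, and it passed in 1, with libraries scaled by total counts (-0.37). In the authors' deposited table the same contrast has a log2 fold change of -0.32 with an adjusted p of 0.0499.

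Eif4g3 had 20418, 20771 and 21275 normalized counts with oxamate. It had 17983, 19286 and 18674 in untreated PD cells, all lower, and its fitted difference was 0.16 on the log2 scale (SE 0.12, adjusted p = 0.504). The Eif4g3/Eif4g1 count ratio was therefore 7.54 ± 1.08 with oxamate and 5.47 ± 0.67 untreated, with no overlap and a log2 difference of 0.46 (exact two-sided permutation p = 0.1, adjusted p = 0.191). That difference lies in the same direction as the one from LZ to PD cells, and not toward the LZ balance. Leaving out 1 library at a time gave 0.34 to 0.55. Per kb Eif4g3 made up 83.8% ± 1.84 of the pair with oxamate and 79.0% ± 1.95 untreated.

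**Figure D4:**
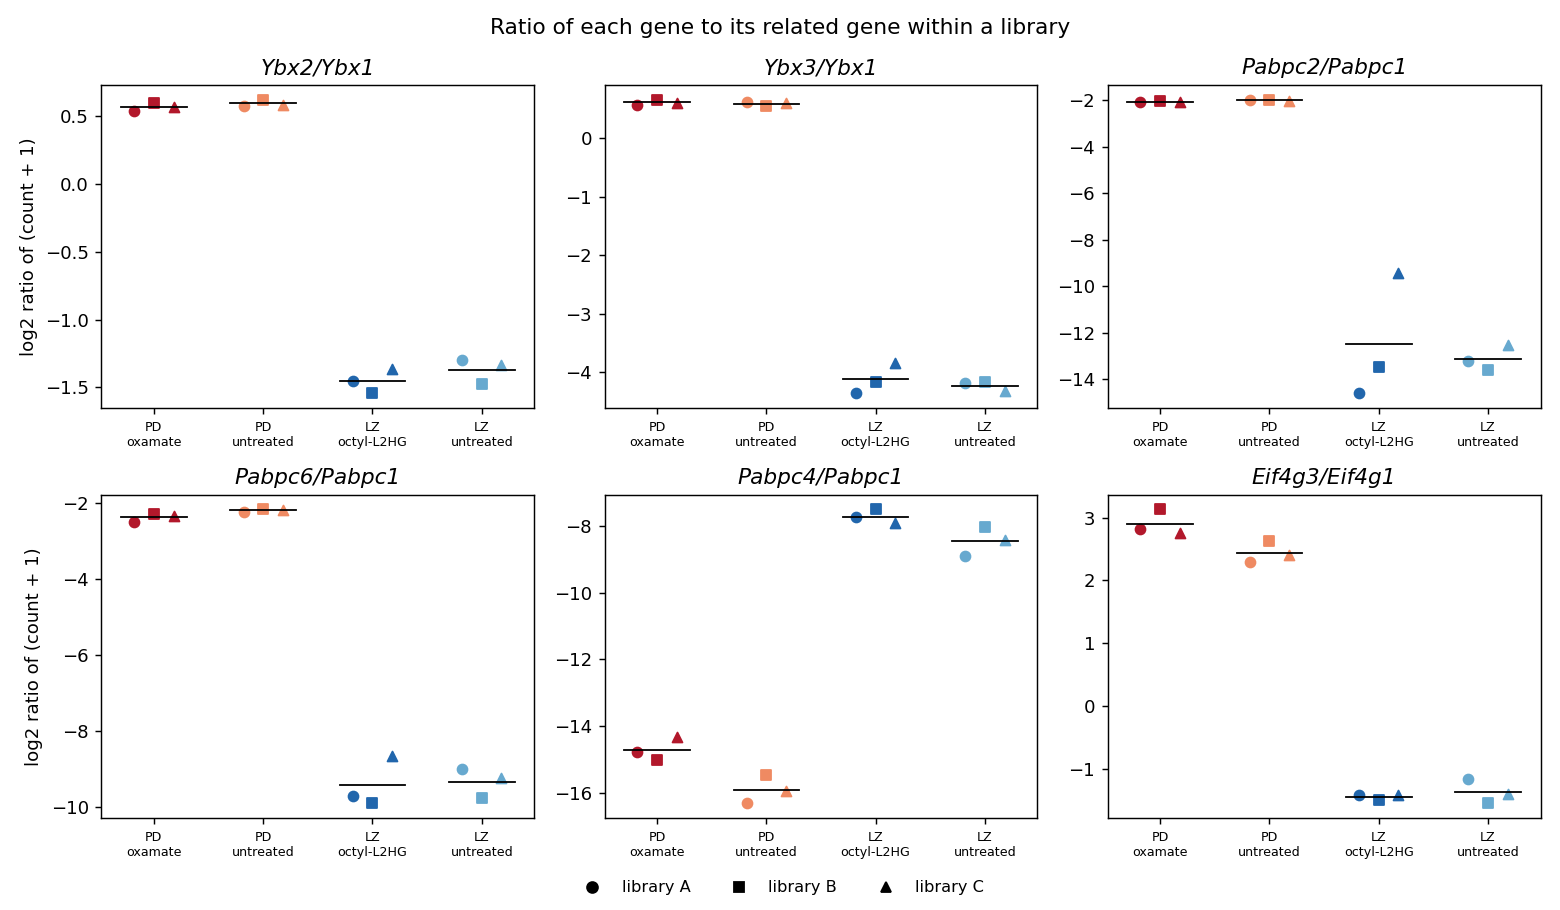
Log2 ratio of the counts (each plus 1) of a gene and its relative within each library, with 1 point per library and a line at the group mean. In each of these 6 panels the PD and LZ groups do not overlap, the untreated groups do overlap in the Pabpc1l/Pabpc1 ratio, which is not drawn, and the Eif4g3/Eif4g1 ratio is higher in the 3 oxamate libraries than in the 3 untreated PD libraries.

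All 3 Y-box genes overlapped between oxamate and untreated PD cells. Ybx2 had 57999, 53647 and 53648 normalized counts with oxamate, within the untreated range but for the first library, and Ybx3 averaged 56732 ± 2304 with oxamate and 54297 ± 1428 untreated. The 95% intervals of the log2 fold changes were -0.14 to 0.23 for Ybx1, -0.18 to 0.21 for Ybx2 and -0.17 to 0.30 for Ybx3. Changes as large as the stage difference of each gene lie outside them.

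Pabpc6 and Pabpc2 were lower with oxamate in every code without passing the test. Pabpc6 had 17745, 19804 and 19587 normalized counts with oxamate. Untreated PD cells had 19925, 22674 and 23531, with no overlap, and the log2 fold change was -0.21 (95% interval -0.88 to 0.46, adjusted p = 0.802). Pabpc2 had 24048, 23609 and 23749 with oxamate and 24117, 25619.8 and 26460.4 untreated, with no overlap by a small margin (log2 fold change -0.09, adjusted p = 0.983). Without octyl-L2HG library C, which widens the shared spread of both genes, their adjusted p-values were 0.653 for Pabpc6 and 0.900 for Pabpc2. Over 20 alternative settings the adjusted p from limma ranged from 0.0624 to 0.919 for Pabpc6. For Pabpc2 the lowest was 0.151, and neither gene was called in any of them. Pachytene and diplotene markers stood at 0.978% to 1.06% of counts with oxamate and 1.08% to 1.12% untreated. Round spermatid markers stood at 0.0423% to 0.0573% with oxamate and 0.0550% to 0.0701% untreated. Endothelial markers summed to 0.00113% to 0.00137% with oxamate and 0.00207% to 0.00212% untreated. Macrophage, Leydig cell and stromal sums were also lower without overlap, while Sertoli cell sums overlapped. No marker tested was called between these groups. The part of all these cells in these values was not tested. Pabpc1 averaged 99054 ± 2170 with oxamate and 100923 ± 6223 untreated (adjusted p = 0.945).

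Pabpc4 had 3, 2 and 4 reads with oxamate and 0, 1 and 1 untreated, too few for the test. The ratio of summed counts, scaled for depth, was 4.17 with a 95% counting interval of 0.863 to 39.6. With no filter on low counts this gene alone was called higher in the set (log2 fold change 1.25, adjusted p = 0.0442).

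The test of the difference between the oxamate change and the octyl-L2HG change called none of 9 genes by limma or with voom weights, where 0.712% of 11232 genes were called higher and 0.516% lower. Eif4g1 had the smallest p, with -0.43 (SE 0.15, unadjusted p = 0.0127, adjusted p = 0.166), the only one of the 9 with an unadjusted p under 0.05. Among all 11232 genes, 1049 were higher and 851 lower by that measure.

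The wider machinery around the 3 families was described from 7 further lists, 136 of whose genes could be tested between the untreated stages, where 50.8% of all genes were called higher and 39.0% lower. Most partners of the poly(A)-binding proteins fell while a testis poly(A) polymerase rose. Of 10 such partners and polyadenylation genes, 2 rose and 8 fell, with a median of -1.30 against 0.49 for all genes. Papolb, the testis form of poly(A) polymerase, had 19016 ± 480.2 normalized counts in untreated PD and 262 ± 43.7 in untreated LZ cells (log2 fold change 6.19, adjusted p = 8.81e-15), and Tent4b rose by 0.26, which is below the median of all genes and became a fall of 0.22 (log2 fold change -0.22, adjusted p = 0.00811) when libraries were scaled by total counts. The Tent4b call was lost in 8 of 20 alternatives, with untreated LZ library B or any 1 PD library left out and in a fit of only the untreated groups. Tent4a (-4.39), Tent2 (-4.10) and Paip2b (-3.80), an inhibitor of poly(A)-binding proteins, fell most.

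Of 39 mRNA storage and repression genes, 9 rose, 26 fell and 4 did not pass the test, with a median of -1.177. Ddx25, a testis RNA helicase that male mice need to make sperm, had 12468 ± 185 normalized counts in untreated PD and 924 ± 32.4 in untreated LZ cells (3.75, adjusted p = 1.68e-14). Cpeb2 and Larp1 rose by 2.56 and 1.64. Cpeb1, which binds a tail-lengthening signal in stored messages, had 13.5 ± 3.78 in untreated PD and 2436 ± 230.4 in untreated LZ cells (-7.42, adjusted p = 6.18e-14). The translational repressor Fmr1 had 89.6 ± 12.9 in untreated PD and 15114 ± 2746 in untreated LZ cells, and Patl1, of the decapping and storage particles, 28.7 ± 7.76 in untreated PD and 4156 ± 460.3 in untreated LZ cells. Among 22 deadenylation and decapping genes 5 rose, led by the deadenylation adaptor Btg4 (3.73), Dcp1b (3.02) and the CCR4-NOT scaffold Cnot1 (1.33), and 16 fell, led by Cnot6l (-4.57), Dcp2 (-2.72) and Tob1 (-2.35).

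Of 12 other cap-binding factors 2 rose and 7 fell. Eif4a1, the helicase that binds eIF4G, had 975 ± 33.5 normalized counts in untreated PD and 5101 ± 725 in untreated LZ cells (-2.38, adjusted p = 1.50e-11). Mknk2, a kinase of the cap-binding protein, and Eif4b fell by 2.39 and 1.61 on the log2 scale. Eif4e2, another cap-binding protein, and Mknk1 rose by 1.58 and 1.09. Of 32 other initiation factors 14 rose and 15 fell, with Eif2b5 (2.65), Eif2b4 (2.16) and Eif3b (1.70) as the largest rises and Eif2s3x (-6.18), Eif2b3 (-4.45) and Eif2s3y (-2.69) as the largest falls. When libraries were scaled by total counts 8 rose and 18 fell. Of 13 elongation and termination factors 6 rose and 7 fell, led by Eef2k (6.71), the kinase that inhibits elongation factor 2, and by Eef1e1 (-3.06).

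With libraries scaled by total counts the split of higher to lower was 1 to 9 for the poly(A) list, 7 to 31 for storage and repression, 5 to 17 for deadenylation and decapping and 2 to 10 for cap-binding factors, where 44.2% of all genes were called higher and 46.2% lower.

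All 8 messages known to be stored in male germ cells rose, with a median of 8.96. Pgk2, Odf1 and Akap4 had log2 fold changes of 9.77, 9.47 and 9.37. Tnp1 and Prm1 of this list are also among the round spermatid markers, so these counts move with those markers. All 8 round spermatid markers were likewise higher in untreated PD cells. The part of spermatids in the rise of the 8 stored messages was not tested.

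**Figure D5:**
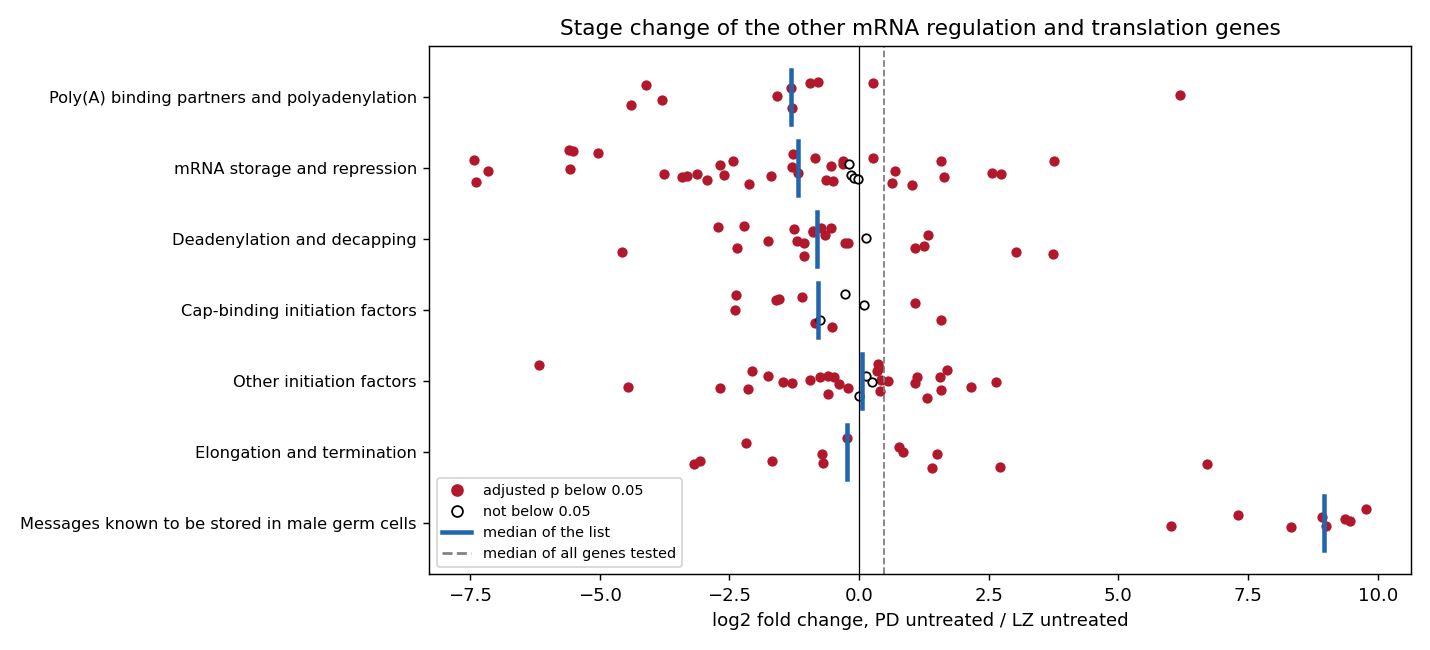
Log2 fold change between untreated PD and untreated LZ cells (horizontal axis) for 1 gene per point in 7 lists, filled where the adjusted p is below 0.05, with the list median as a solid blue bar and the median of all genes tested, 0.49, as a dashed line. Medians of the first 4 lists lie between -1.30 and -0.80, and the stored messages lie together at the right.

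Octyl-L2HG moved no gene of these lists past the test by limma or with voom weights, out of 132 tested. At an unadjusted p under 0.05, 23 of the 132 were higher and none was lower. Among all 13005 genes, 1320 were higher and 372 lower by that measure, 13.0% in all. With oxamate 15 of 132 were called, all higher, where 6.15% of all genes were called higher and 1.67% lower. These were 3 of 10 poly(A) partners and polyadenylation genes, 7 of 37 storage and repression genes, 4 of 22 deadenylation and decapping genes and 1 of 11 cap-binding factors. No other initiation factor, elongation factor or stored message was called by this fit. The counts depend on the setting. Over 20 alternatives 11 to 21 list genes were higher and 0 to 5 lower. With voom weights 11 were higher and 2 lower, and 10 of the 15 were among them. The 2 lower genes, which were picked out for these values, were Btg4 (-0.57, adjusted p = 0.0166) and the stored message Tnp2 (-0.80, adjusted p = 0.00568). In a fit of only the oxamate and untreated PD libraries 17 were higher and 5 lower, and 4 of the 8 stored messages were lower (Prm1, Prm2, Tnp1 and Tnp2, list median -0.37), of which Prm1 and Tnp1 are also round spermatid markers. That fit also called 1 other initiation factor, Eif1b, and 1 termination factor, Gspt1, higher. With no filter on low counts 4 storage and repression genes and no cap-binding factor were called. With the replicate block by library code, which pairs these libraries, 21 were higher, with 9 storage and repression genes, 6 deadenylation and decapping genes and 3 cap-binding factors. When the oxamate and octyl-L2HG changes were tested against each other, the fit used throughout called none of these genes, nor did voom weights. With the block Mknk2 (0.67, adjusted p = 0.0458) and Eif4a1 (0.54, adjusted p = 0.0271) were called. Several alternatives without the block also called some, such as 3 with libraries scaled by total counts and 5 without untreated PD library C. Eif4enif1, which carries the cap-binding protein into storage particles, had 1734 ± 31.96 normalized counts with oxamate and 1122 ± 113 untreated (0.63, adjusted p = 0.00126). Among called genes of that list averaging at least 100, Fmr1 (0.84, adjusted p = 0.0430) and Celf1 (0.57, adjusted p = 0.00529) were the other largest rises. Fmr1 had 167 ± 55.8 normalized counts with oxamate and 89.6 ± 12.9 untreated. Cpeb1, with 13.5 ± 3.78 untreated, was called too (0.66, adjusted p = 0.0376). Neither Fmr1 nor Cpeb1 was called with voom weights, in the fit of only these groups or with no filter on low counts. Tob1 (0.56), Cnot6 (0.54) and Cnot3 (0.42) led the deadenylation list, and Tent4a (0.51), Tent4b (0.48) and Papola (0.35) the poly(A) list. Eif4a1 had 1255 ± 55.5 with oxamate and 975 ± 33.5 untreated (0.36, adjusted p = 0.0427), a call that was lost in 6 of 20 alternatives, over which the adjusted p ranged from 0.0116 to 0.0627. Those were voom weights, no filter on low counts, and leaving out octyl-L2HG library C, untreated PD library B or C, or oxamate library A.

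Among these 136 genes the profile over 12 libraries nearest to each of the 10 was found by the root mean square difference of centred log2 values. This is a description, since the libraries fall into 2 stages and any gene with a like stage change comes near. Nearest to Ybx1 was Eif3b (0.0879), to Ybx2 Ddx25 (0.153) and to Ybx3 Papolb (0.204). Pabpc1 was nearest to Eif3g (0.106), Pabpc2 to Pgk2 (1.178), Pabpc4 to Fmr1 (0.472), Pabpc6 to Papolb (0.709) and Pabpc1l to Cnot2 (0.299). Eif4g1 was nearest to Paip1 (0.130), which links poly(A)-binding protein to the initiation machinery, and Eif4g3 to Eif2b5 (0.108).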

How the data were processed

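Per the labels' protocols, libraries were made by poly(A) capture with a stranded KAPA kit. Per the submitters' processing notes the build was GRCm38 and the tools were TopHat2 2.1.1 and cutadapt 1.18, with HTSeq 0.6.0, bcl2fastq 2.18.0.12 and DESeq2 1.22.2, in no stated order. How strand and reads with several matches were treated is not given in the sources used here. The authors deposited raw read counts per gene. Of 55471 genes, 6255 have question marks in place of counts and were left out, and 12 columns of authors' normalized values were not used. The values of the remaining genes were read as counts, and no count model was run.

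Counts were scaled by TMM (written in R 4.3.3), and log2(normalized count + 1) was fitted with limma 3.58.1 (limma-trend, robust) over 12 libraries and 4 group means. The fit held 16983 genes averaging at least 10, each tested where the libraries compared also did. All gene p-values are two-sided and adjusted by Benjamini-Hochberg over all genes tested, from limma unless the authors' table is named. The steps were run on simulated data in which few genes changed. Most genes tested here differed between the stages, so that run does not test the scaling between stages. Column names show the group and a code, not the labelled replicate. Libraries of 1 code deviated together in both treatment comparisons (correlations 0.141 to 0.318 for octyl-L2HG, 0.386 to 0.524 for oxamate). They did so less between stages (0.0365 to 0.106). Libraries of different codes gave -0.236 to 0.0995 for octyl-L2HG and -0.366 to -0.00361 for oxamate. Deviations were taken from group means, so positive values within codes push those between codes down, and the latter are no separate evidence. By the values within codes, codes pair libraries within a treatment comparison, more clearly for oxamate. All members and lists were chosen with earlier results of these data known. Up to 3 rises and 3 falls per list were named, the largest among called genes averaging at least 100 whose groups do not overlap. Alternatives were other scalings, no filter, pseudocounts of 0.5 and 5, voom weights, a replicate block, fits of only the groups compared, and leaving out each library. Sequences are from RefSeq (GRCm38.p6, 7 of 10 genes matched), and gene coordinates equal GENCODE M21.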

Additional observations from a re-analysis of the deposited data

How the results depend on the processing

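The number of the 10 genes called stayed within 1.5 times in every comparison and alternative, with 2 exceptions, both for oxamate: 1 gene (Eif4g1) was called lower with total-count scaling, and 1 gene (Pabpc4) was called higher with no filter on low counts, each in place of 0. Pabpc1 between the stages turned to -0.069 with total-count scaling. Of 749 values of single genes under alternatives, that was the only called value to change sign; 1 call was lost (Pabpc1 without untreated PD library C, 0.19) and 1 was gained, and 55 uncalled values changed sign without being called. The replicate block by library code, which pairs the libraries within a treatment, changed no call among the 10 genes; Eif4g1 with oxamate had an adjusted p of 0.0521 with the block. Counts over all genes varied more: 15 to 59 higher and 0 to 8 lower for octyl-L2HG, 729 to 1231 higher and 107 to 809 lower for oxamate, and 10 to 354 higher and 22 to 130 lower for the difference of the changes. Depth limits Pabpc4 in PD cells and Pabpc2 in LZ cells, where single reads move the value.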
